A study of Homo sapiens with 6 samples.

Results

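The ER membrane protein complex (EMC) puts transmembrane segments into the membrane of the endoplasmic reticulum (ER). It acts mainly on tail-anchored proteins, whose only membrane segment lies at the end of the chain, and on the first segment of many multipass proteins. It shares this work with the Sec61 translocon and the GET pathway. In this human hepatoma line with UBE2S knocked out, the mRNA of 1 subunit, EMC10, was nearly lost, while the other subunits together held 434 CPM in knockout and 451 CPM in wild type (CPM are counts scaled to a common library size). Among those others EMC9 differed most, at 4.66 CPM in knockout and 7.22 CPM in wild type.

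The 10 subunit genes were taken by symbol from a table of 20289 genes: EMC1, EMC2, EMC3, EMC4, EMC6, EMC7, EMC8, EMC9, EMC10 and MMGT1, which encodes the subunit also called EMC5. EMC10 was set against the other 9. The subunits were selected on their knockout and wild-type values in these same libraries, the loss of EMC10 above all. The difference between the groups is therefore described for the subunits and is not tested, and no p-value is given for them. Where a subunit is said below to pass or miss the threshold of the fit over all genes, this describes its row and supports nothing.

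Poly(A) RNA was sequenced from UBE2S knockout Huh7 cells (3 libraries) and from wild-type Huh7 cells (3 libraries), to find factors downstream of UBE2S, an E2 enzyme that extends ubiquitin chains on substrates of the anaphase-promoting complex. Huh7 is a line of human hepatocellular carcinoma cells, which both groups share. The sources used here do not say how the knockout was made, whether its line was 1 clone, or whether replicates were separate cultures, so the spread between libraries may be technical. Library totals were 21840499 to 25840104 estimated counts in knockout and 23300336 to 27910396 in wild type. UBE2S itself had 1046, 1062 and 1147 counts in the knockout libraries, against 6332, 5129 and 6068 in the wild-type libraries. The 7 hepatocyte and hepatoma markers examined, albumin and alpha-fetoprotein among them, summed to between 26600 and 27100 CPM in knockout and between 29200 and 29800 CPM in wild type. They did not move together. APOA1 and FGB were higher in knockout (log2 fold changes 0.40 and 0.67), and ALB, AFP, APOB, TTR and SERPINA1 were lower (-0.13 to -0.57). Among immune markers, CD3E was at 0 in all 6 libraries and PTPRC reached at most 8 counts in a library. The biliary marker KRT7 reached at most 1 count, but EPCAM, the other biliary gene, reached 611. The endothelial gene PECAM1 reached 155. EPCAM made up nearly all of the biliary sum below and PECAM1 most of the endothelial sum. Summed markers of other cell types were low but differed between groups: 2.23 to 2.52 CPM in knockout and 5.51 to 6.82 CPM in wild type for 3 endothelial genes, 8.41 to 9.45 CPM in knockout and 4.82 to 5.69 CPM in wild type for 3 fibroblast genes, and 15.9 to 18.2 CPM in knockout and 21.1 to 22.6 CPM in wild type for 2 biliary genes. COL1A2, a collagen gene outside the fibroblast list and named after its values were seen, went the other way. It had 24 counts in the knockout libraries together and 10893 in the wild-type libraries. The part of these genes in the subunit values was not tested.

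The assembled EMC is known to hold each of its subunits once, with either EMC8 or EMC9 but not both. EMC3, which belongs to the Oxa1 family of insertases, and EMC6 form the path through which segments enter the membrane, with MMGT1 beside them. EMC2 is a cytosolic scaffold, and EMC8 and EMC9 are paralogs that take the same cytosolic place. EMC1 carries the largest part of the complex that faces the ER lumen, and EMC4, EMC7 and EMC10 complete the membrane and luminal sides. EMC10 is anchored at the luminal periphery, and an alternatively spliced form of it is secreted.

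EMC10 lies on the plus strand of chromosome 19, at chr19:50476400-50490870 in GRCh38 (GENCODE release 29), where 8 transcripts are annotated. Because its mRNA was the one nearly lost, the sequence before its RefSeq transcription start is shown. The 150 bases below run from 250 to 101 bases upstream of the start, at chr19:50476257-50476406 on the plus strand (RefSeq, GRCh38.p14), and the capitals mark TGACGTCA, the palindromic cyclic AMP response element.
EMC10 promoter: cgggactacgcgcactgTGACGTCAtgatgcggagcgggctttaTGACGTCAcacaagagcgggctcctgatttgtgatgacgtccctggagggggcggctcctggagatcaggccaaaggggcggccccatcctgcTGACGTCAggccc

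The 3 copies of TGACGTCA begin 233, 206 and 113 bases upstream of the RefSeq start. The 2 annotations differ here: the GENCODE gene start given above, 50476400, lies inside the printed stretch, within the last copy. Counted from that start the distances are shorter, and the last printed bases belong to the gene. This motif was picked after the sequence had been seen. In the 250 bases upstream of the start of 35116 RefSeq genes of all types, 578 promoters (1.65%) held at least 1 copy and 1 promoter, that of EMC10, held 3 or more. The shorter TGACG, searched on both strands and contained 2 times in each full element, occurred 8 times in the EMC10 window, and 1.01% of promoters held it 3 or more times. Promoters of 8 of the 10 subunit genes were in the table. In the other 7, TGACGTCA was absent from the window, and TGACG occurred once, before EMC4. The palindromic E-box CACGTG was found once among the 8, before EMC9, and in 6.34% of all promoters. CG dinucleotides numbered 25 in the EMC10 window and 12 to 35 in the other 7, against a median of 11 over all promoters. A match of letters describes the sequence and does not show a bound site.

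EMC10 had 1, 1 and 1 counts in the knockout libraries, against 142, 141 and 133 counts in the wild-type libraries. On the TMM-scaled library sizes this was 0.0455, 0.0428 and 0.0386 CPM in knockout, against 5.25, 6.05 and 4.74 CPM in wild type. All 3 knockout libraries lay far below all 3 wild-type libraries, and none of them was at 0. With 3 counts against 416 in all, the knockout level was 0.793% of the wild-type level (exact 95% binomial interval 0.163% to 2.33%, which covers counting error only). The fitted log2 fold change was -6.82 (SE 0.30), a value that depends on how the fit treats such low counts. In RNA of bulk cells, fewer cells that express a gene and less RNA per cell cannot be told apart.

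The EMC10 value can also be read without any scaling between libraries, as its share of the counts of the 10 subunits. EMC10 took 0.0105%, 0.00982% and 0.00890% of them in the knockout libraries, against 1.15%, 1.33% and 1.04% in the wild-type libraries. The counts of all 10 subunits together were 434, 436 and 433 CPM in knockout and 458, 456 and 454 CPM in wild type. Without EMC10, the other 9 summed to 434 ± 1.31 CPM in knockout and 451 ± 1.63 CPM in wild type (SD, n = 3 each). The knockout sums all lay below the wild-type sums, although these SDs are smaller than counting error alone would give. EMC10 was a minor part of the subunit mRNA even in wild-type cells, so its near loss took away a small share of the total.

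**Figure D1:**
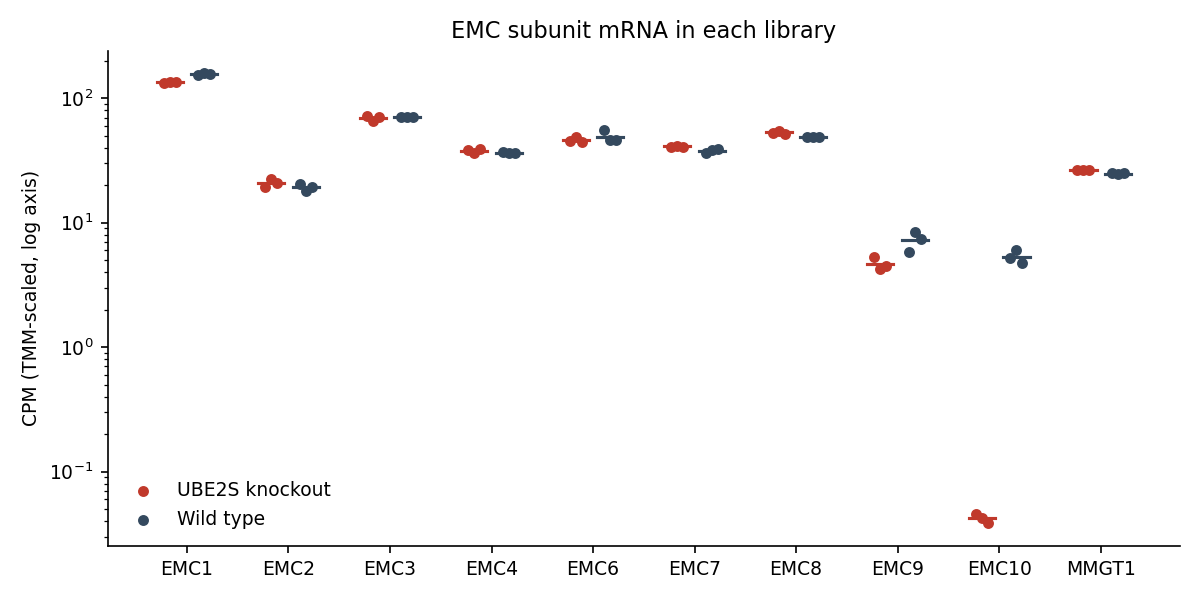
CPM of each of the 10 subunit genes in the 3 UBE2S knockout and 3 wild-type libraries, on a log axis, with a bar at each group's mean. EMC10 lies at 0.0386 to 0.0455 CPM in knockout and at 4.74 to 6.05 CPM in wild type. Of the other subunits EMC9 differs most, with means of 4.66 CPM in knockout and 7.22 CPM in wild type, and the groups lie closer together for the rest.

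Across the transcriptome, 7975 of 13265 tested genes (60.1%) had an adjusted p below 0.05 with edgeR's quasi-likelihood test, 29.4% higher and 30.7% lower in the knockout. All 10 subunit genes passed the filter on low counts. By the same threshold 1 subunit gene, EMC8, was higher and 3, EMC1, EMC9 and EMC10, were lower. The other 6 missed it. Since these same values chose the set, nothing is read from that count. The median log2 fold change of the 9 subunits other than EMC10 was 0.06, with a range of -0.63 to 0.12, and that of all tested genes was 0.00. EMC10 thus lay 6.88 below the median of the other subunits on the log2 scale.

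The membrane core showed small differences. EMC3, the insertase subunit, had 71.5, 65.1 and 70.4 CPM in knockout and 70.9, 70.9 and 70.4 CPM in wild type, with a log2 fold change of -0.04 (SE 0.04). EMC6, its small partner in the insertion path, had 45.0, 48.8 and 44.5 CPM in knockout and 55.7, 45.8 and 45.9 CPM in wild type (-0.09, SE 0.07). Both sets of values overlapped, and for EMC6 the first wild-type library stood above the other 5. Without that library, wild-type replicate 1, the EMC6 value was 0.01. MMGT1 had 586, 620 and 691 counts in knockout and 677, 571 and 701 in wild type. This was 26.6 ± 0.0793 CPM in knockout and 24.8 ± 0.305 CPM in wild type (SD, n = 3 each), a log2 fold change of 0.10 (SE 0.05). Both SDs are smaller than counting error alone would give at such counts, so they do not show how precise the means are. The knockout libraries of MMGT1 all lay above its wild-type libraries, although the gene missed the threshold. EMC4, a membrane subunit, overlapped between groups, at 38.0 ± 1.40 CPM in knockout and 36.6 ± 0.496 CPM in wild type (SD, n = 3 each).

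On the cytosolic side, the paralogs EMC8 and EMC9 went opposite ways. EMC8 had 53.0, 54.9 and 52.0 CPM in knockout and 49.2, 49.0 and 49.3 CPM in wild type, a log2 fold change of 0.12 (SE 0.04). EMC9 had 5.27, 4.23 and 4.47 CPM in knockout and 5.81, 8.45 and 7.42 CPM in wild type, a log2 fold change of -0.63 (SE 0.14). Neither gene's groups overlapped, and the wild-type libraries were the more scattered ones for EMC9. The EMC8 call was lost with DESeq2, and with edgeR when knockout replicate 2 was left out (log2 fold change then 0.10). The EMC9 call rested on few reads, 331 counts in all knockout libraries together against 562 in all wild-type libraries. EMC2, the scaffold, had 19.4, 22.3 and 20.7 CPM in knockout and 20.4, 17.9 and 19.4 CPM in wild type (0.11, SE 0.07), with overlapping groups. Without knockout replicate 2, or without wild-type replicate 2, its value was 0.06.

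EMC1, the large luminal subunit, had the most counts of the 10 genes. Its level was 134, 136 and 134 CPM in knockout and 152, 159 and 157 CPM in wild type, a log2 fold change of -0.21 (SE 0.03). No knockout library reached the lowest wild-type library. EMC7, another subunit with a luminal domain, had 40.7, 41.6 and 40.7 CPM in knockout and 36.2, 38.4 and 39.3 CPM in wild type (0.11, SE 0.05). Its groups did not overlap either, and it was on the edge of the threshold. It passed with DESeq2 size factors and when wild-type replicate 3 was left out (log2 fold change then 0.14), and it missed the threshold with DESeq2's own test and when wild-type replicate 1 was left out (0.07). In all, 3 subunit genes had every knockout library above the wild-type libraries (32.3% of all tested genes did) and 3 had every one below (33.5% of all), where 65.8% of all tested genes did not overlap.

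**Figure D2:**
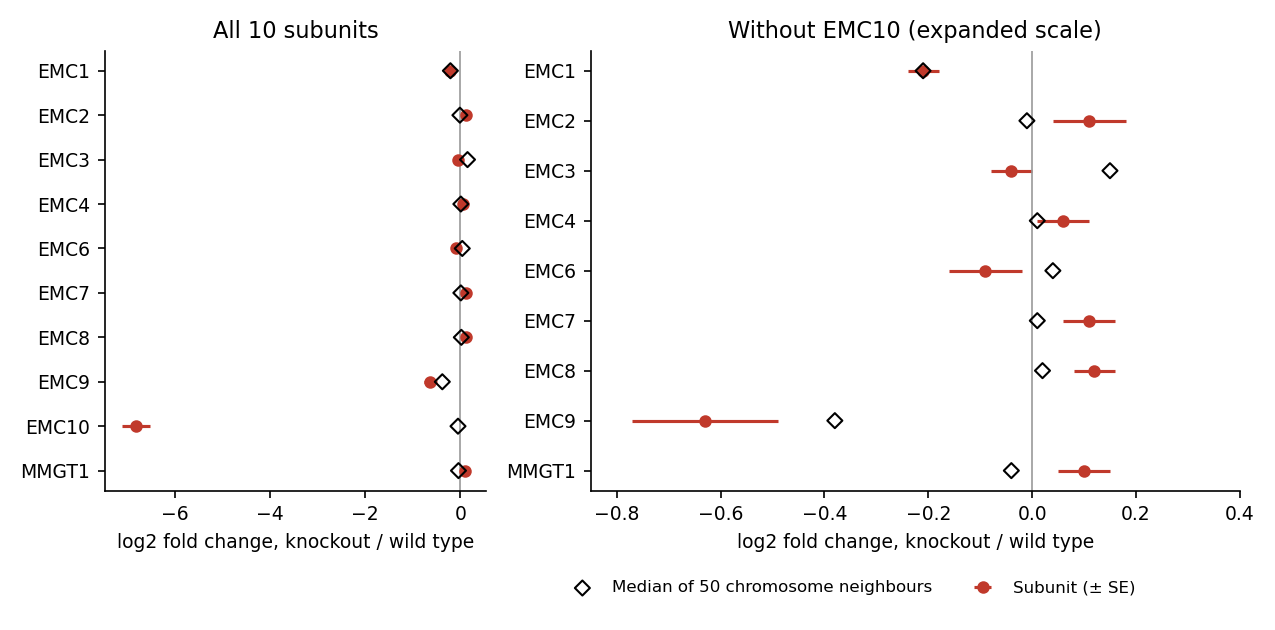
Log2 fold change (UBE2S knockout over wild type, ± SE) of each subunit gene as circles, with the median of the 50 tested genes nearest to it on its chromosome as open diamonds; the right panel leaves out EMC10. EMC10 at -6.82 stands apart from its neighbours' median of -0.05, whereas EMC1 lies on its neighbours' median of -0.21.

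Levels of different subunits were compared per length, as RPKM over the shortest transcript of each gene with a consensus coding sequence. In wild-type cells EMC6 was highest at 75.2 ± 8.74 RPKM, followed by EMC4 (42.9 ± 0.583), EMC1 (38.2 ± 0.801) and EMC7 (32.9 ± 1.40). EMC3 (25.5 ± 0.103) and EMC8 (25.4 ± 0.0737) overlapped, and EMC2 (15.5 ± 0.993), EMC9 (8.65 ± 1.60), MMGT1 (6.65 ± 0.0817) and EMC10 (2.66 ± 0.326) came below (mean ± SD in RPKM, n = 3 each). EMC10 was thus the lowest subunit before any loss. In knockout cells the order was the same except for 3 neighbouring pairs. EMC7 (35.5 ± 0.424) lay above EMC1 (32.9 ± 0.247), EMC8 (27.6 ± 0.763) above EMC3 (24.8 ± 1.23) and MMGT1 (7.12 ± 0.0212) above EMC9 (5.58 ± 0.654), and none of these pairs overlapped between genes in the knockout libraries. EMC10 was at 0.0210 ± 0.00173 RPKM there. Each of these libraries held 1 EMC10 count, so this SD reflects library size only and leaves out counting error. Measured over all merged exons, which are longer for EMC10 (10748 bases against 2014), its wild-type level was 0.498 RPKM and again the lowest of the 10. The order of other subunits depended on the length used: over merged exons EMC4 was at 8.20 RPKM in wild type, below EMC8 at 12.2.

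**Figure D3:**
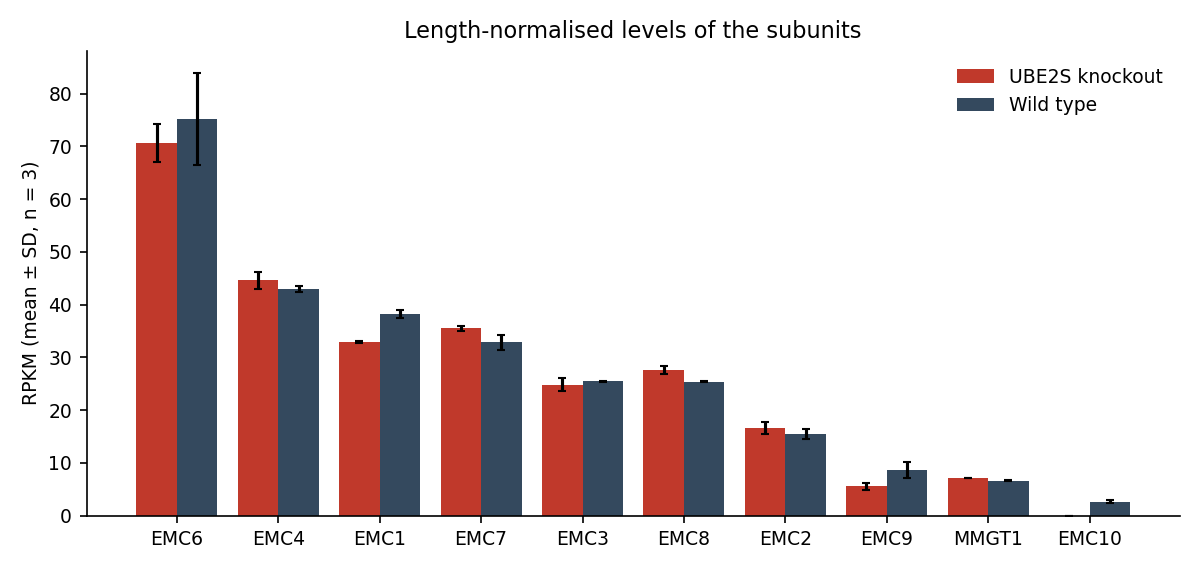
Length-normalised level (RPKM, mean ± SD of 3 libraries) of each subunit gene in UBE2S knockout and wild-type cells, ordered by the wild-type level. EMC6 is highest in both groups, and EMC10 is lowest, at 0.0210 RPKM in knockout and 2.66 RPKM in wild type.

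The observed scatter between libraries differed among the subunits. Coefficients of variation in knockout ran from 0.298% for MMGT1 to 11.7% for EMC9, and in wild type from 0.290% for EMC8 to 18.4% for EMC9. The values for MMGT1 and EMC8 lie below counting error at their counts. With 3 libraries per group, such low values do not show that a gene varies less than others. EMC9 and EMC10, the subunits with the fewest counts, were the most variable in wild type, EMC10 at 12.3%. Estimates for EMC6 were not whole numbers in 6 libraries and for EMC4 in 4, as happens when reads are divided among overlapping genes, so their values are less certain. EMC6 shares 571 bases of exon with P2RX5-TAX1BP3 on the other strand. Whether the counting used strand is not stated.

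EMC10 also has a partner on the other strand. FAM71E1 starts within it and shares 324 bases of exon, and it had 0 counts in the knockout libraries and 2 in the wild-type libraries. The annotated antisense genes in EMC10, AC020909.3 and AC020909.2, have no row in the table, so reads from them could not be told from EMC10 reads if strand was not used. EMC1 shares 272 bases of exon with the antisense gene AL035413.1 and EMC9 shares 311 with AL136295.2 on the other strand, and neither of these has a row in the table, so the same limit holds for them. Overlaps with genes in the table were shorter for the other subunits that passed the threshold. EMC1 shares 14 bases with MRTO4, which fell (log2 fold change -0.34, SE 0.04, edgeR adjusted p = 8.8e-06). EMC9 shares 9 bases with PSME1, a proteasome activator gene, which also fell (-0.61, SE 0.05, edgeR adjusted p = 1.8e-07), and EMC8 shares 4 with COX4I1 (-0.16, SE 0.04, edgeR adjusted p = 0.0022). The part of these overlaps in the subunit values was not tested.

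The median of the tested neighbours lay nearer to no change for EMC10 than for EMC1 and EMC9, the other subunits that were lower. The 25 tested genes on each side of EMC10 had medians of -0.03 on the side of lower coordinates and -0.07 on the other, and -0.05 together. Of these 50 genes, 14 (28.0%) fell and 5 rose. On chromosome 19 as a whole 40.6% fell and 27.0% rose, and on the other chromosomes 30.0% fell and 29.7% rose. The nearest tested gene before EMC10 was POLD1, the catalytic subunit of DNA polymerase delta, which rose slightly (0.14, SE 0.04, edgeR adjusted p = 0.0072). The nearest after it was JOSD2, a deubiquitinase gene, at 0.50 (SE 0.21, edgeR adjusted p = 0.059), with 208 counts in knockout and 161 in wild type.

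Chosen after their values were seen, MYH14 and ZNF175 were the other genes in this window with a near loss. MYH14, a non-muscle myosin gene that starts 288 kb before EMC10, was at 0.200 CPM in knockout and 10.8 CPM in wild type (-5.75, SE 0.25). ZNF175, a zinc finger gene that starts 1090 kb after EMC10, was at 0.0143 CPM in knockout and 3.22 CPM in wild type (-7.41, SE 0.42). The tested genes between MYH14 and EMC10, NR1H2 and POLD1, had log2 fold changes of 0.06 and 0.14, so the near losses were not contiguous. Over the transcriptome, 18 tested genes had a knockout level of at most 1% of wild type, of which 6 lay on chromosome 19, EMC10, ZNF175, SLC7A10, ZNF730, ZNF793 and ZNF415. Of all 13222 tested genes with a position, 929 lay on that chromosome.

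**Figure D4:**
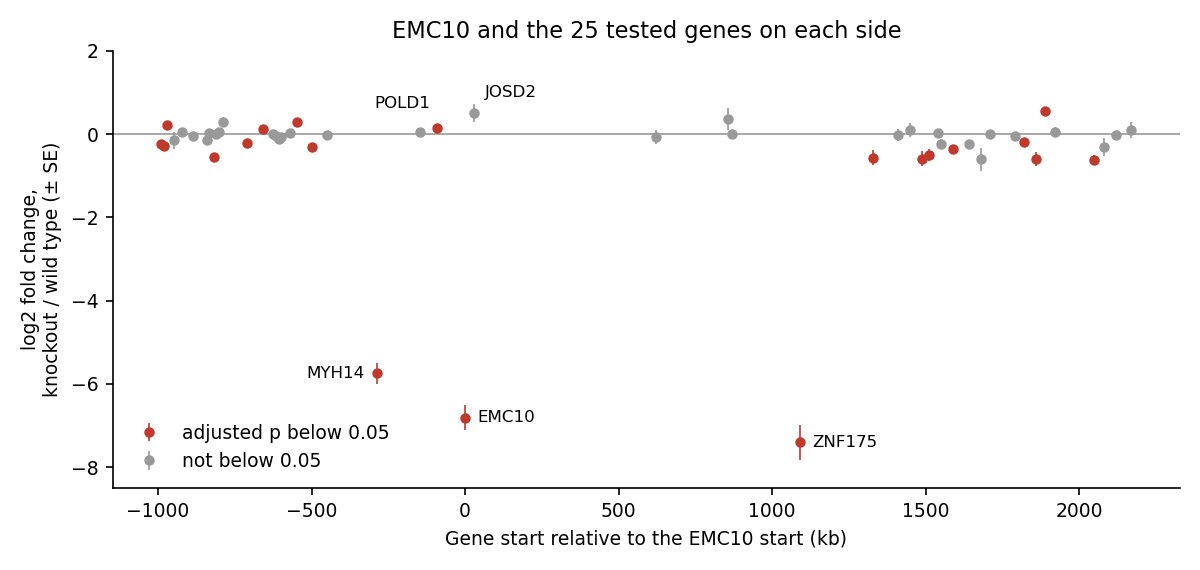
Log2 fold change (UBE2S knockout over wild type, ± SE) of EMC10 and the 25 tested genes on each side of it, against the distance of their starts from the EMC10 start in kb. EMC10, MYH14 and ZNF175 lie at -6.82, -5.75 and -7.41, and the nearest tested genes POLD1 and JOSD2 lie at 0.14 and 0.50.

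EMC1 and EMC9 lay among neighbours that were themselves lower. EMC1, at chr1:19215664-19251552 on the minus strand (GRCh38), was at -0.21 and the median of its 50 tested neighbours was also -0.21. EMC9, at chr14:24138959-24141588 on the minus strand, was at -0.63 and its neighbours at -0.38. With the neighbours' median subtracted, EMC1 stood at 0.0025, EMC9 at -0.25 and EMC10 at -6.78. For EMC8, on chromosome 16, the neighbours' median was 0.02. EMC3 lay among neighbours with a median of 0.15, and stood at -0.19 with it subtracted. The part of a shift shared along the chromosome in the subunit values was not tested, and this subtraction only describes them.

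The genes most like EMC10 in their pattern over the 6 libraries, among those with a mean of at least 5 CPM, were CDHR5, L1CAM, SORCS2, DCAF4L2 and MICB. Likeness was the root mean square difference between log2 CPM values centred on each gene's wild-type mean, and it ran from 0.258 for CDHR5 to 0.506 for MICB. The log2 CPM were computed with a prior count of 2, which narrows the differences between levels near 0, so the order depends on it. By fitted log2 fold change DCAF4L2 (-6.40) and L1CAM (-6.13) lay nearer to EMC10 (-6.82) than CDHR5 did (-5.48). CDHR5, a protocadherin-related gene, had 6, 8 and 6 counts in knockout and 339, 307 and 354 in wild type. L1CAM, which encodes an adhesion molecule, had 4, 7 and 4 counts in knockout and 395, 366 and 416 in wild type. Both were at a handful of counts in every knockout library and at 307 or more in every wild-type library. The 5 genes lie on 5 different chromosomes, 11, X, 4, 8 and 6, and none of them on that of EMC10. The limit of 5 CPM shaped this list. EMC10 itself, at 0.0423 CPM in knockout and 5.35 CPM in wild type, had a mean below it. So did CD38 (0.0551 and 6.68 CPM, log2 fold change -6.78) and, on chromosome 19, ZNF175 (0.0143 and 3.22 CPM). The chromosomes of the 5 genes therefore do not describe the near-lost genes in general.

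Other genes linked to membrane insertion and early modification at the ER were followed as 7 lists of 56 genes, of which 55 were tested. The last list, 3 genes whose proteins are known to need the EMC, is not part of that machinery, and 2 of its genes fell. Of the 55 genes, 13 rose (29.4% of all tested genes did) and 19 fell (30.7% of all), with a median log2 fold change of -0.04 and a range of -0.49 to 0.53. EMC10, at -6.82, lay far outside that range. The signal recognition particle, which brings ribosomes to the ER, and its receptor had 3 of 8 genes lower and 0 higher (median -0.07). SRP14, a particle subunit, fell most (-0.22, SE 0.05, edgeR adjusted p = 0.0016).

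The Sec61 channel with its partners had 3 of 12 genes higher and 3 lower (median -0.03). TRAM2, a membrane protein beside the channel, rose to 192 ± 2.23 CPM in knockout, against 133 ± 2.90 CPM in wild type (0.53, SE 0.03, edgeR adjusted p = 1.8e-08). SEC61A2, the minor form of the channel subunit, was at -0.20 (SE 0.07, edgeR adjusted p = 0.029). Its neighbours' median was -0.39, and it was not called with DESeq2 (adjusted p = 0.12), nor without knockout replicate 1 (0.090) or 2 (0.11) or wild-type replicate 2 (0.11), by edgeR adjusted p.

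The GET pathway, which inserts tail-anchored proteins beside the EMC, had 4 of 7 genes higher and 1 lower (median 0.09). GET4 rose (0.38, SE 0.04, edgeR adjusted p = 3.4e-06) and SGTA, a chaperone that receives tail-anchored proteins first, fell (-0.49, SE 0.04, edgeR adjusted p = 1.1e-06). The median of the 50 tested neighbours was 0.21 for GET4, and it was -0.46 for SGTA, which lies on chromosome 19. The multipass translocon had 3 of 9 genes higher and 3 lower (median -0.04), with CCDC47 at 0.21 (SE 0.03, edgeR adjusted p = 1.2e-04) and TMEM147 at -0.39 (SE 0.05, edgeR adjusted p = 1.4e-05). TMEM147, also on chromosome 19, had neighbours at -0.42. NOMO1, NOMO2 and NOMO3 in this list are near-identical copies, so their separate values are uncertain.

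The oligosaccharyltransferase, which adds N-linked glycans, had 1 of 11 tested genes higher and 6 lower (median -0.07). DAD1, a core subunit, fell to 62.0 ± 1.12 CPM in knockout, against 85.8 ± 4.63 CPM in wild type (-0.47, SE 0.04, edgeR adjusted p = 1.1e-06), with neighbours at -0.32. KRTCAP2 rose (0.30, SE 0.07, edgeR adjusted p = 0.0028), with neighbours at 0.16. Signal peptidase had 2 of 5 genes higher and 1 lower (median 0.08), with SPCS3 at 0.23 (SE 0.06, edgeR adjusted p = 0.0042) and SEC11C at -0.34 (SE 0.06, edgeR adjusted p = 2.0e-04). The neighbours of SPCS3 had a median of 0.18, and its value was 0.15 without wild-type replicate 1.

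Of 3 genes whose proteins are known to need the EMC for insertion, 2 fell. SOAT1, which esterifies cholesterol, was at 68.7 ± 1.01 CPM in knockout and 87.4 ± 3.54 CPM in wild type (-0.35, SE 0.04, edgeR adjusted p = 6.4e-06). FDFT1, the squalene synthase of sterol synthesis, was at 190 ± 1.91 CPM in knockout and 212 ± 3.33 CPM in wild type (-0.16, SE 0.03, edgeR adjusted p = 3.3e-04). ADRB1, an adrenergic receptor gene, was near the limit of detection, at 0.658 ± 0.0678 CPM in knockout and 0.528 ± 0.0893 CPM in wild type (edgeR adjusted p = 0.35). These are mRNA levels, and protein or its insertion was not measured.

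**Figure D5:**
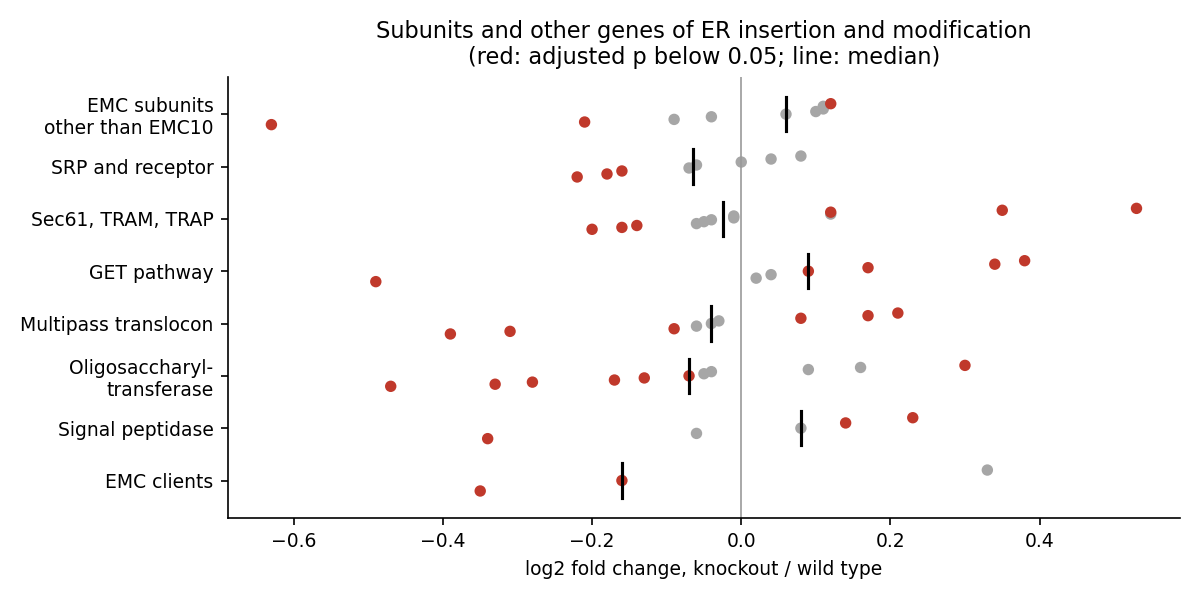
Log2 fold change (UBE2S knockout over wild type) of each tested gene in the 7 lists and of the 9 subunits other than EMC10, red where the edgeR adjusted p is below 0.05, with a line at each median. All points lie between -0.63 and 0.53, and every list but 2, the signal recognition particle and the EMC clients, holds genes called in both directions.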

How the data were processed

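For the 6 libraries the authors deposited a single table of estimated counts, not normalized. The submitters' processing notes list Bowtie2 2.2.8, HISAT2, StringTie 1.3.1 and DESeq2 without saying what each did. Counting program, annotation and genome build are not stated. In each library 2670 to 2835 genes had values that were not whole, and all were rounded before testing. Groups came from the sample titles. Subunits and lists were chosen with earlier results of these data known.

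Genes were kept by filterByExpr (minimum count 10), scaled by TMM and compared, knockout over wild type, by edgeR 4.0.16 quasi-likelihood tests in R 4.3.3, without covariates and with Benjamini-Hochberg adjustment over 13265 genes (threshold 0.05). The script was tested on simulated counts. Standard errors came from the fold change and F. CPM and RPKM use TMM-scaled totals. Of the identifiers, 99.4% matched GENCODE release 29, which gave positions and lengths.

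Genes named are the subunits, UBE2S, in each list the called gene with the largest change in each direction, all 3 EMC clients, the nearest neighbours and overlapping genes of subunits, and the 5 genes most like EMC10. Alternatives were other scalings, filters, DESeq2 1.42.0, limma-voom (limma 3.58.1), a replicate block, a threshold of 0.01, single libraries left out and neighbours subtracted.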

Additional observations from a re-analysis of the deposited data

How the results depend on the processing

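Every alternative uses the values that chose the subunits, so their counts of calls are a description and support nothing. The count of subunit genes called lower was 3 throughout. The count called higher was 1 with all libraries. It was 2 with DESeq2 size factors, with upper quartile scaling, with total counts alone and with a filter of at least 1 CPM in 3 libraries, where EMC7 joined EMC8. It was 0 with DESeq2 and at a threshold of 0.01, and 0 to 2 with single libraries left out. EMC10 minus the median of the other subunits was -6.88, against -7.04 with DESeq2 and -6.45 with limma-voom, which treat its single knockout counts differently. Without single libraries it ran from -6.95 to -6.79. Left out one at a time, libraries gave EMC3 values of -0.06 to 0.01 and EMC6 values of -0.14 to 0.01. Neither was called, and the sign changed without knockout replicate 2 for EMC3 and without wild-type replicate 1 for EMC6. With the neighbours' median subtracted, EMC1 (0.0025), SEC61A2 (0.19), TMEM147 (0.03) and ADRB1 (-0.07, against 0.33 before) changed sign. SGTA (-0.03), GET4 (0.17), KRTCAP2 (0.13), SPCS3 (0.05), DAD1 (-0.15) and EMC9 (-0.25) moved toward 0 by more than 1.5 times, and EMC3 (-0.19), EMC6 (-0.14) and FDFT1 (-0.24) moved away from it by about 1.5 times or more. No scaling moved the median of all genes by more than 0.014.

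Titles number the replicates 1 to 3 in both groups, but same-numbered libraries did not deviate together over all tested genes (correlations 0.0241, -0.0369 and 0.0173). These values show no pairing, and they cannot exclude one that touches few genes. With a replicate block, 3872 genes were higher and 4041 lower, against 3903 and 4072 without it, and the subunit calls were 1 and 3. With 1 count of EMC10 in each knockout library, the size of its loss is limited by depth.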
